A study of Mus musculus with 32 samples.

Results

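Neat1 is a long noncoding RNA of the nucleus, and the interactions described here are those in which Neat1 was the RNA partner of a piece of chromatin. The data come from RADICL-seq, in which RNA and nearby DNA inside fixed nuclei are joined by a bridge adapter, so that every sequenced molecule has an RNA tag and a DNA tag. Interactions were taken when the deposited gene identifier of the RNA tag was that of Neat1 (ENSMUSG00000092274). This gave 85709 Neat1 interactions of 25231081 listed in 15 libraries, and 1 of 17784 transcripts. The 15 libraries fall into 6 groups from 2 established mouse lines, R08 embryonic stem cells (mESCs) grown without feeder cells and Oli-neu cells, a proliferating line derived from oligodendrocyte progenitor cells (mOPCs).

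The mESC 1FA group (3 libraries) was fixed with 1% formaldehyde and mESC 2FA (3 libraries) with 2%. In mESC ActD4 (2 libraries) the cells had received actinomycin D, an inhibitor of transcription, at 5 µg/ml for 4 h before fixation. In mESC NPM (2 libraries), for non-protein-mediated, the proteins had been removed by digestion and the crosslinks undone by the time of RNA ligation. The mOPC 1FA group (3 libraries) and mOPC NPM (2 libraries) received the 1FA and NPM procedures in Oli-neu cells. The labels also name a second sequencing run of mESC NPM replicate 1, and whether the interactions of that replicate come from 1 run or both is not given in the sources used here. Each cell type is 1 line, so that cell type and line cannot be told apart. The study's methods call cell batches of unlike passage number biological replicates, so that p-values measure the spread between batches of a single line.

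The Neat1 gene is the source of a short isoform, which ends at a polyadenylation signal near the 5′ end of the gene, and of a long isoform, which reads on past that signal and is cut at its 3′ end without a conventional poly(A) tail. The long isoform is the scaffold of paraspeckles, nuclear bodies that hold proteins such as Sfpq, Nono and Pspc1 and retain RNAs in the nucleus. Malat1, the neighbouring gene on the same strand, makes another abundant nuclear RNA and serves below as the RNA most like Neat1 in origin.

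On GRCm38 (mm10) the Neat1 gene covers 20771 bases of the minus strand, at chr19:5824708-5845478. The short isoform of RefSeq lies at chr19:5842296-5845480 and has 3185 bases. An RNA tag in the first 3183 bases of the gene (the shared 5′ part) can come from either isoform, whereas a tag in the remaining 17588 bases (the long-only part, chr19:5824708-5842295) cannot come from the annotated short isoform. The sequences below are read from the genome on the strand of the RNA. Tag positions in the files have an uncertainty of 1 base, since their counting from 0 or 1 was not stated. The first sequence shows why a tag can be placed on one side of the short end. It runs over the end of the short isoform at chr19:5842166-5842355, and the capitals mark the AATAAA signal, which starts 31 bases before that end, and the 27 bases of a frequent RNA tag centred 109 bases past it. The second is the 3′ end of the long isoform at chr19:5824708-5824817, with runs of at least 4 A or 4 T in capitals.

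short isoform end: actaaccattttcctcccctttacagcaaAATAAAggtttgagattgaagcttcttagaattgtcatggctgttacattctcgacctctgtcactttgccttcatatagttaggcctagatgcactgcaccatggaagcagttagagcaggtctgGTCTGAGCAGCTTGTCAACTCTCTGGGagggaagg
long isoform end: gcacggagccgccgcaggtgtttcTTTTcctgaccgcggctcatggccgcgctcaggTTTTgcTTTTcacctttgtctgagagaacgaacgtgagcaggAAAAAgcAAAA

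The tags that recurred most often are shown next, because they are the pieces of Neat1 RNA and of Neat1 DNA on which the counts rest. The 3 most frequent RNA tag positions of mOPC 1FA lay in the shared 5′ part, at chr19:5845134-5845194, chr19:5845317-5845377 and chr19:5844200-5844260 with their surroundings, and the 27 bases of the tag are in capitals. The 2 most frequent DNA tag positions within Neat1 in mOPC NPM lay at chr19:5836267-5836327, in the long-only part, and at chr19:5843818-5843878, in the shared part.

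RNA tag rank 1 mOPC 1FA: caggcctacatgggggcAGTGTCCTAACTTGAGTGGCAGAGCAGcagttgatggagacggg
RNA tag rank 2 mOPC 1FA: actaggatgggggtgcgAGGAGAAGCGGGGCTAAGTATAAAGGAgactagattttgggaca
RNA tag rank 3 mOPC 1FA: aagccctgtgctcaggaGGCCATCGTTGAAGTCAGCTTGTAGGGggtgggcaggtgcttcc
own-gene DNA tag rank 1 mOPC NPM: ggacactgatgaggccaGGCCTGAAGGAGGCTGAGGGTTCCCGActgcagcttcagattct
own-gene DNA tag rank 2 mOPC NPM: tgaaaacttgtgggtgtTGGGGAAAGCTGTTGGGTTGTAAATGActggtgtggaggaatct

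Only those pairings of a transcript with a DNA bin of 25 kb are in the files that the authors called significant, and every Neat1 pair carried a single adjusted p in all libraries of its group, so that the call was made on the pooled libraries. The libraries of a group therefore share a list of pairs, and their spread understates that of libraries called one by one. Listed interactions ranged from 1998951 to 2832717 in the mESC 1FA, mESC 2FA and mOPC 1FA libraries, from 1190366 to 1272653 in mOPC NPM, from 434610 to 608994 in mESC NPM and from 251802 to 418781 in mESC ActD4. In mESC 1FA all 8 mESC markers examined were listed, with a summed level of 1865 to 2290 CPM (interactions per 1000000 listed), against 1 of 8 in mOPC 1FA (0.949 to 1.501 CPM, with Pou5f1 and Nanog at 0). Of 8 mOPC markers, 7 were listed in mOPC 1FA, at 8095 to 8948 CPM in sum and with Nkx2-2 listed at 0, and 4 in mESC 1FA (6.75 to 33.2 CPM, with Olig1 and Olig2 at 0). Of the mOPC markers, Lhfpl3 alone was at 5842, 6263 and 6486 CPM in the mOPC 1FA libraries, most of the sum. Marker lists of further cell types summed to at most 187 CPM in mESC 1FA (endoderm) and 399 CPM in mOPC 1FA (neuron). The labelled cell types thus carried their own markers.

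Neat1 made up a larger part of the listed interactions in mOPCs than in mESCs. Its level is given in CPM, over all listed interactions of the library. The mESC 1FA libraries held 1404, 919 and 876 Neat1 interactions, or 526, 376 and 309 CPM (404 ± 111, mean ± SD, n = 3). The mOPC 1FA libraries held 12746, 13162 and 11286, or 5765, 6245 and 5646 CPM (5885 ± 317, n = 3). Every mOPC 1FA library lay above every mESC 1FA library. Neat1 ranked 284, 468 and 660 among 14064 to 14205 listed transcripts in mESC 1FA, and 6, 7 and 8 among 11553 to 11640 in mOPC 1FA. On the log2 scale, with totals scaled by TMM (trimmed mean of M-values), the difference was 4.33 (SE 0.21). It is given as a description, with no test, because the study picked Neat1 for its difference between these cell types.

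The NPM procedure was accompanied by a larger listed share of Neat1. The mOPC NPM libraries held 23117 and 19282 Neat1 interactions, or 18164 and 16198 CPM (17181 ± 1390, n = 2), and Neat1 was second among all transcripts in both. The mESC NPM libraries held 382 and 535, or 878.9 and 878.5 CPM (879 ± 0.319, n = 2), with ranks of 65 and 76. In each cell type the NPM libraries did not overlap with the 1FA libraries. In the limma fit over all transcripts the difference between mOPC NPM and mOPC 1FA was 0.71 on the log2 scale (SE 0.32, adjusted p = 0.0916), and that between mESC NPM and mESC 1FA was 0.46 (SE 0.22, adjusted p = 0.105). Neither passed the threshold of 0.05, whereas 55.5% of all transcripts tested did in mOPCs and 50.7% in mESCs. With totals of listed interactions in place of TMM, both passed, at 1.54 (adjusted p = 0.000828; 66.4% of transcripts called) and 1.16 (adjusted p = 0.000887; 54.8% called). That scaling moved the median of all transcripts from 0.14 to 0.95 in mOPCs and from −0.18 to 0.51 in mESCs. With TMM, the mESC difference also passed without mESC 1FA replicate 1 (0.72, limma adjusted p = 0.0105), and the mOPC difference without mOPC 1FA replicate 2 (0.79, limma adjusted p = 0.0302).

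Between the cell types after the NPM procedure, Neat1 was higher in mOPCs by 4.72 on the log2 scale (SE 0.21, limma adjusted p = 2.88e-05), in a comparison in which 51.2% of transcripts were called. It was 4.67 to 4.77 when any of the 4 libraries was left out. Each of these fits leaves a lone library in 1 group and takes the spread from the other group. The adjusted p was 0.0297 without mESC NPM replicate 2, and the call was lost without mESC NPM replicate 1 (limma adjusted p = 0.0645), mOPC NPM replicate 1 (adjusted p = 0.123) or mOPC NPM replicate 2 (adjusted p = 0.122). Outside the Neat1 gene itself the difference was 8.93 (limma adjusted p = 0.000284), in a fit of 412 transcripts in place of 11043, with 20 and 37 Neat1 contacts in the mESC NPM libraries. That value is relative to the 412 transcripts left in the fit. Over all listed interactions these contacts were at 46.0 and 60.8 CPM in mESC NPM and at 5507 and 4981 CPM in mOPC NPM.

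Contacts outside the Neat1 gene did not share the larger listed share of the NPM libraries. They were at 385, 259.7 and 205.1 CPM in mESC 1FA and at 46.0 and 60.8 CPM in mESC NPM, below every mESC 1FA library. In mOPC 1FA they were at 4999, 5769 and 5036 CPM, and the mOPC NPM libraries, at 5507 and 4981 CPM, overlapped with these. When the own-gene contacts of all transcripts were left out of the fit, the log2 difference of Neat1 was 0.88 in mESC NPM (limma adjusted p = 0.0498) and 4.10 in mOPC NPM (adjusted p = 2.83e-05), against a median of −4.59 and −4.88 over all transcripts tested. These differences are relative to the other transcripts in the fit and do not measure a rise of Neat1 contacts outside its gene.

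After actinomycin D the level of Neat1 was lower, and with stronger fixation it lay below that of mESC 1FA by a smaller amount. The mESC ActD4 libraries held 59 and 24 Neat1 interactions, or 141 and 95.3 CPM (118 ± 32.2, n = 2), below every mESC 1FA library. The log2 difference was −1.97 (SE 0.25, limma adjusted p = 0.000363), against a median of −0.41 over all transcripts, of which 61.3% were called. With own-gene contacts left out it was −2.003 (limma adjusted p = 0.00354), against a median of −1.13, so that other transcripts were also lower there. Neat1 had 3 listed pairs in mESC ActD4 and 82 in mESC 1FA. The paper reports fewer uniquely mapped interactions after actinomycin D, so that its pairs were called at lower depth. How far depth lowered the listed level of Neat1 was not tested. Malat1 in the mESC ActD4 libraries was at 14865 and 15846 CPM, within the range of mESC 1FA (13461 to 25278). The mESC 2FA libraries held 642, 571 and 704 Neat1 interactions, or 286, 281 and 280 CPM (282 ± 3.47, n = 3). These also lay below the mESC 1FA libraries, by −0.54 on the log2 scale (SE 0.16, limma adjusted p = 0.245, with 0.0301% of transcripts called). Without mESC 1FA replicate 1 the difference was −0.31 (limma adjusted p = 0.599). With the replicate number as a block the difference of −0.54 had an SE of 0.10 and passed the threshold (limma adjusted p = 0.00352, with 5.23% of transcripts called).

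**Figure D1:**
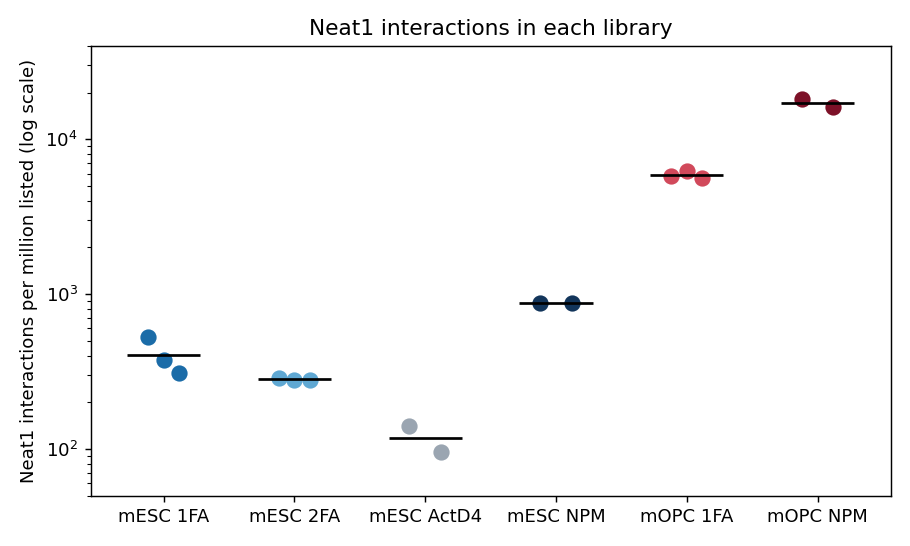
Neat1 level in CPM (log axis) in the 15 libraries of the 6 groups, with a point for each library and a horizontal line for the group mean. From mOPC NPM (17181) through mOPC 1FA (5885), mESC NPM (879), mESC 1FA (404) and mESC 2FA (282) to mESC ActD4 (118), no group overlaps with its neighbour.

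The share of RNA tags in the long-only part of Neat1 was higher in mOPCs than in mESCs. It was 25.1%, 37.3% and 36.99% in the mESC 1FA libraries (33.1 ± 6.98%, n = 3) and 52.6%, 55.6% and 61.6% in the mOPC 1FA libraries (56.6 ± 4.60%, n = 3). The mESC and mOPC libraries did not overlap, and the difference was 23.5 percentage points (exact two-sided permutation test, p = 0.1, the smallest this design allows, 0.32 after Benjamini-Hochberg adjustment over 16 tests of shares). Counting error alone gave a 95% exact binomial interval of 22.8% to 27.4% for mESC 1FA replicate 1 and of 51.8% to 53.5% for mOPC 1FA replicate 1. Among NPM libraries the share was 17.3% and 30.7% in mESCs and 81.5% and 67.0% in mOPCs, a difference of 50.3 points (exact permutation p = 0.333, the smallest possible, 0.485 adjusted). With both procedures together and permutation within each of them, the mean difference was 36.9 points (exact permutation p = 0.0167, the smallest possible, 0.16 adjusted). It was 42.5 points when each RNA tag position was counted once in a library. The study had already reported the long isoform in mOPCs from these same 1FA libraries. These p-values are therefore no independent support for the difference. For mESCs the study reported reads on the shorter isoform alone. Long-only tags were listed here in every mESC 1FA library, at the shares given above.

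The shift was not of equal size along the gene. Per kilobase, the long-only part held 0.0606, 0.108 and 0.106 times the tags of the shared 5′ part in the mESC 1FA libraries, and 0.201, 0.226 and 0.291 times in mOPC 1FA. In mOPC NPM this ratio of tag densities was 0.799 and 0.368. Both mOPC NPM libraries were above every mOPC 1FA library, but they lay farther apart from each other than the 3 mOPC 1FA libraries did. In mESC 1FA, 29.3%, 24.8% and 25.6% of the long-only tags fell in the first 1000 bases past the end of the short isoform, against 11.9%, 10.95% and 10.3% in mOPC 1FA. Tags farther than 1000 bases past that end made up 17.7%, 28.1% and 27.5% of all Neat1 tags in mESC 1FA and 46.4%, 49.5% and 55.3% in mOPC 1FA. Whether tags just past the end are long isoform or short RNAs that end later than annotated was not tested.

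The last 200 bases of the long isoform held 6, 2 and 0 RNA tags in the mESC 1FA libraries and 308, 294 and 197 in mOPC 1FA, or 2.42%, 2.23% and 1.75% of the Neat1 tags of the latter. These bases include the A-rich end printed above, which is known to fold back on the U-rich runs before it. In mOPC NPM the most frequent RNA tag position of all was 20758 bases from the 5′ end, a few bases from the 3′ end, with 35 and 201 tags in the 2 libraries. Most of the tags at that position thus came from mOPC NPM replicate 2.

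Single tag positions did not carry the counts. The 3 RNA tags printed above were centred 314, 131 and 1248 bases from the 5′ end and were seen 200, 124 and 79 times, 130, 158 and 87 times, and 140, 128 and 83 times in mOPC 1FA. Each made up at most 1.08% of the Neat1 interactions of the group. The tag past the end of the short isoform, at 3291 bases, was seen 83, 89 and 76 times. The positions 314 and 1248 were also among the 8 most frequent of mESC 1FA.

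**Figure D2:**
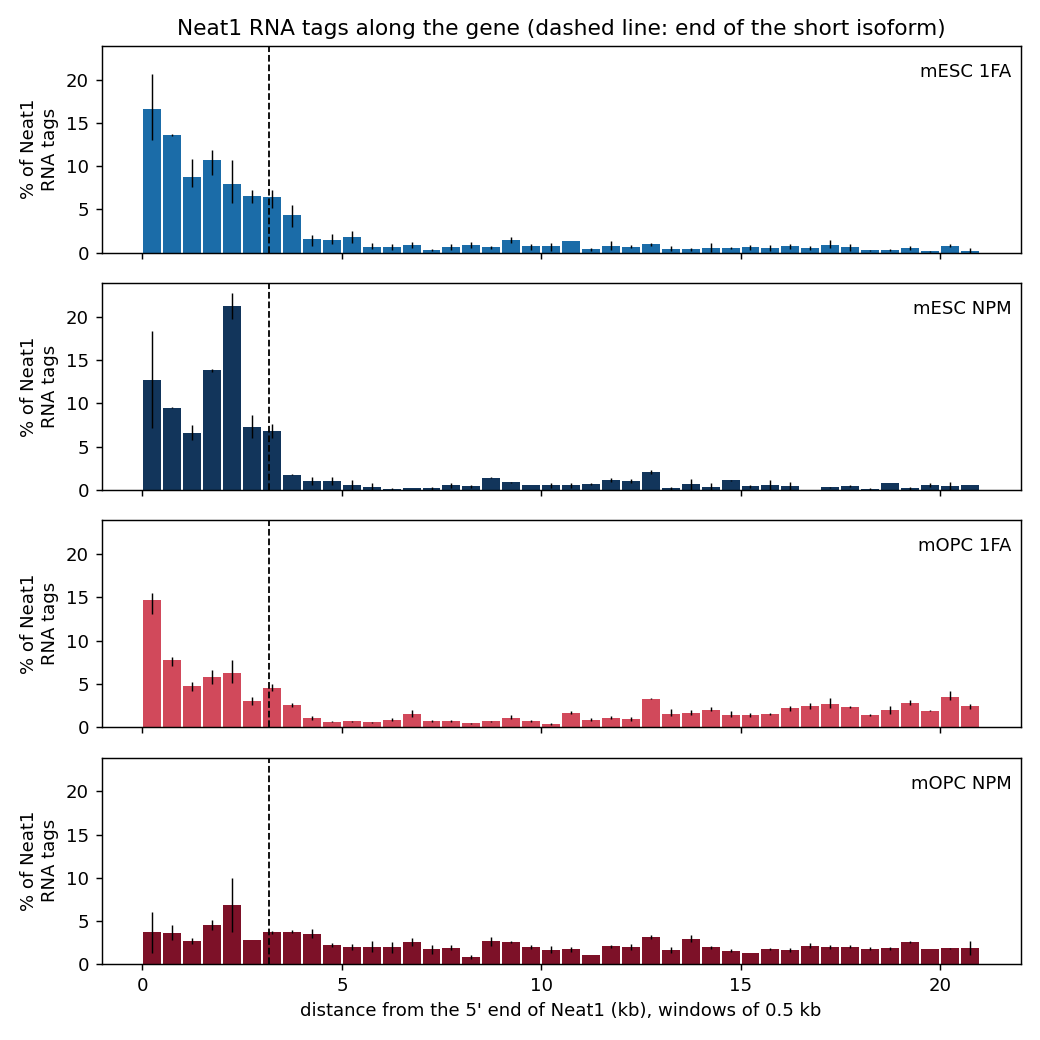
RNA tags along the Neat1 gene as the percentage of all Neat1 tags in windows of 0.5 kb from the 5′ end. Panels are for mESC 1FA, mESC NPM, mOPC 1FA and mOPC NPM, with bars for the mean over libraries and lines from the lowest to the highest library. The dashed line is the end of the short isoform. The first window holds 16.6% of tags in mESC 1FA, 14.7% in mOPC 1FA and 3.68% in mOPC NPM, and tags of each of these groups reach the last window.

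In mESCs the long-only shares of the treated groups overlapped with those of mESC 1FA, whereas the mOPC NPM libraries lay above mOPC 1FA. The share was 35.0%, 38.4% and 28.7% in mESC 2FA (exact permutation p = 0.8 against mESC 1FA, 0.853 adjusted) and 33.9% and 29.2% in mESC ActD4 (exact permutation p = 1.0). The mESC NPM libraries overlapped with mESC 1FA, with a difference of −9.16 points (exact permutation p = 0.4, 0.533 adjusted). The mOPC NPM libraries lay above mOPC 1FA by 17.7 points (exact permutation p = 0.2, the smallest possible for 3 against 2 libraries, 0.32 adjusted). With each tag position counted once, that difference was 6.40 points. The same count gave −16.2 points in mESC NPM and −12.1 in mESC ActD4 (exact permutation p = 0.2 each, the smallest possible), against −9.16 and −1.59 over all interactions. Within mOPC 1FA, trans contacts held a long-only share of 53.9%, 57.9% and 62.6%, above the 46.9%, 50.6% and 56.6% of cis contacts outside the Neat1 gene in each library. Contacts with DNA of Neat1 itself, at 57.2%, 52.7% and 65.5%, had no common order with the trans contacts. In mESC 1FA the order of trans and other cis contacts was the reverse in each library. There the trans contacts, 32, 13 and 12 in number, had a long-only share of 9.38%, 7.69% and 8.33%. Cis contacts outside the Neat1 gene had 23.8%, 37.8% and 38.7%.

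Neat1 contacts lay mostly in cis in mESCs and mostly in trans in mOPC 1FA. Contacts with DNA on chromosomes other than 19 are called trans. In mESC 1FA they were 32, 13 and 12 interactions, or 2.28%, 1.41% and 1.37% of Neat1 interactions (1.69 ± 0.513%, n = 3). In mOPC 1FA they were 7937, 8599 and 7747, or 62.3%, 65.3% and 68.6% (65.4 ± 3.19%, n = 3). The difference of 63.7 percentage points carries no test, for the reason given above. For Malat1 the trans share was 92.0% to 92.6% in mESC 1FA and 95.2% to 95.9% in mOPC 1FA, and for all other RNAs it was 3.26% to 5.31% and 0.453% to 0.637%.

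The number of Neat1 interactions moves with this difference. In mESC 1FA the smallest listed Neat1 pair held 8 interactions over the 3 libraries. Scaled to the larger number of Neat1 interactions in mOPC 1FA, the same share of all Neat1 interactions is a pair of 94. None of the 1466 trans pairs of mOPC 1FA reached 94, their median was 14 and their largest 88, whereas 10 of 292 cis pairs did. With that minimum, which was chosen after seeing the data and lies above every trans pair, the mOPC 1FA trans share was fixed at 0. The difference was then −1.69 points. This scaling counts the trans contacts of mOPC 1FA in its total and so sets the minimum high. The study's own call did not rise in that proportion, since the smallest listed Neat1 pair of mOPC 1FA held 11 interactions. Scaled to the cis interactions alone (3142 in mESC 1FA and 12911 in mOPC 1FA), the minimum was 33, also chosen after seeing the data. Of the trans pairs of mOPC 1FA, 51 reached it, as did 58 of the cis pairs. The trans share was then 17.2%, 19.6% and 21.96% in the mOPC 1FA libraries, and the difference was 17.9 points. The size of the difference thus depends on the pair minimum, and no limit can be given for mESC trans contacts, because pairs that were not significant are not listed.

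The NPM procedure went with opposite changes, in the 2 cell types, of the share of Neat1 interactions that was in trans. In mOPC NPM it was 29.8% and 30.5% (30.1 ± 0.469%, n = 2), below every mOPC 1FA library, a difference of −35.3 points (exact permutation p = 0.2, the smallest possible, 0.32 adjusted). In mESC NPM it was 5.24% and 6.92% (6.08 ± 1.19%, n = 2), above every mESC 1FA library by 4.39 points (exact permutation p = 0.2, 0.32 adjusted). Without the bin of the ribosomal RNA genes described below, the mESC difference was 0.356 points (exact permutation p = 0.6) and the mOPC difference −35.5 points. When contacts with the Neat1 gene itself were left out, the mOPC trans share was higher in NPM, by 25.5 points (exact permutation p = 0.2). Own-gene contacts made up 69.5 ± 0.307% of Neat1 interactions in mOPC NPM and 10.6 ± 2.85% in mOPC 1FA, and nearly all other contacts of mOPC NPM were in trans, so that the share without them is close to its maximum. Over all listed interactions, Neat1 trans contacts were a larger part in mOPC NPM, with 6889 of 1272653 and 5874 of 1190366. In mOPC 1FA they were 7937 of 2210765, 8599 of 2107741 and 7747 of 1998951. In mESC ActD4 trans contacts were listed at 0 in both libraries (exact permutation p = 0.2 against mESC 1FA, 0.32 adjusted). With 59 and 24 Neat1 interactions there, counting error alone gave 95% exact binomial intervals up to 6.06% and 14.2%. Both lie above the mESC 1FA shares. The intervals treat interactions as independent draws. Interactions are listed or left out as whole pairs, so the intervals set no limit on the trans contacts of mESC ActD4. In mESC 2FA trans contacts were 1.56%, 1.75% and 1.14% (exact permutation p = 0.7, 0.8 adjusted, and 0.75 in the paired permutation test by replicate number).

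After the NPM procedure nearly all cis contacts lay within 1 kb of the RNA tag. In mESC 1FA the share of Neat1 interactions with RNA and DNA tags within 1 kb was 9.05%, 12.2% and 12.6%, and in mESC NPM it was 94.0% and 91.8%. In mOPC 1FA it was 9.22%, 3.97% and 6.97%, and in mOPC NPM 69.0% and 67.9%. NPM and 1FA libraries did not overlap in either cell type. The differences were 81.6 points in mESCs and 61.7 in mOPCs (exact permutation p = 0.2 each, the smallest possible). The mean difference with permutation within each cell type was 71.7 points (exact permutation p = 0.02, the smallest possible, 0.16 adjusted). Without any 1 of the 4 NPM libraries the smallest possible p was 0.05. A higher share was not particular to NPM in mESCs. The mESC 2FA libraries were at 13.9%, 22.9% and 22.9% and those of mESC ActD4 at 25.4% and 16.7%, each above every mESC 1FA library, with no test run.

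The reach along chromosome 19 also differed between groups. From shortest to longest it gave nearly the order of the mean share within 1 kb from highest to lowest. Only mESC ActD4 and mOPC NPM changed places. Reach is a maximum, here over 83 cis interactions in mESC ActD4 and 12911 in mOPC 1FA, so it also depends on their number. The most distant listed cis contact was 4.49 to 4.504 Mb away in mESC 1FA, 1.56 to 1.57 Mb in mESC 2FA, 0.0418 and 0.0438 Mb in mESC ActD4, and 0.00126 and 0.00180 Mb in mESC NPM. In mOPC 1FA it was 55.2 Mb in each library, and in mOPC NPM 0.0475 and 0.0552 Mb. Contacts between 100 kb and 1 Mb made up 33.7% to 40.0% of Neat1 interactions in mESC 1FA and 6.00% to 9.47% in mOPC 1FA. They were listed at 0 in both NPM groups and in mESC ActD4.

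**Figure D3:**
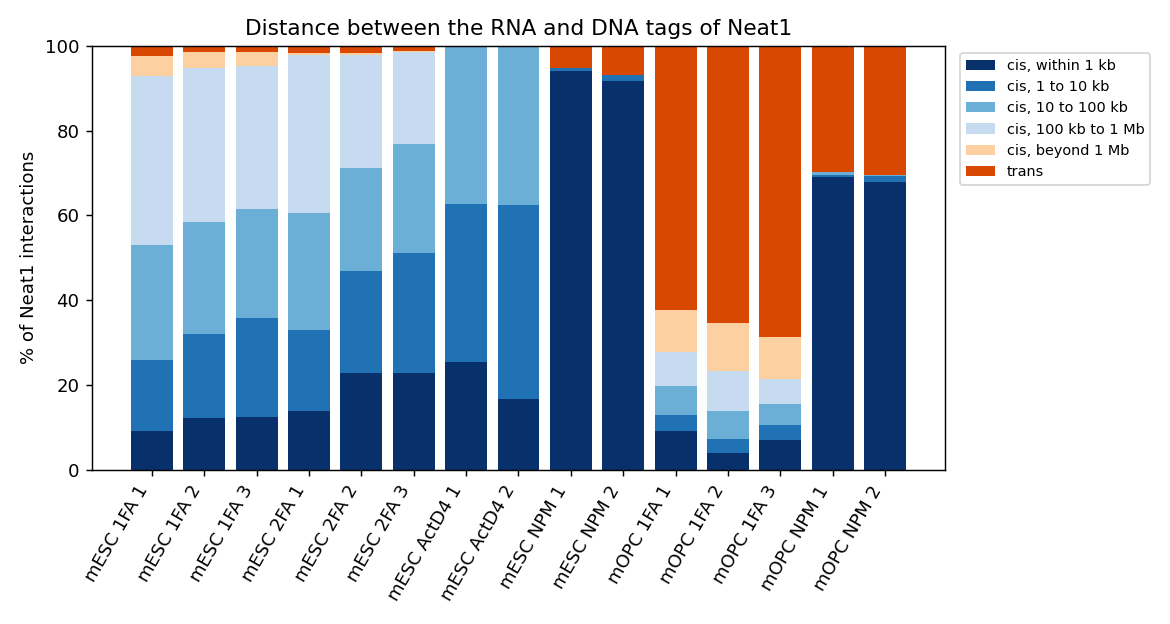
Share of Neat1 interactions by the distance between RNA and DNA tag in each of the 15 libraries, from within 1 kb to over 1 Mb on chromosome 19 and trans. The within-1-kb class holds over 90% in mESC NPM and 67.9% to 69.0% in mOPC NPM, and trans is the widest class in mOPC 1FA.

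Within its own gene, the NPM contacts had a direction. For RNA and DNA tags within 1 kb of each other in Neat1, the DNA tag lay upstream of the RNA tag (towards the 5′ end of the gene) in 99.7% and 98.2% of contacts in mESC NPM and in 97.0% and 98.7% in mOPC NPM. The median distance was 247, 251, 281 and 320 bases in these 4 libraries. In mESC 1FA the DNA tag was upstream in 47.2%, 49.1% and 43.8% of such contacts, and in mOPC 1FA in 86.4%, 86.6% and 84.4%. The 1FA libraries of the 2 cell types did not overlap, and mOPC 1FA lay between mESC 1FA and the NPM groups. These values were not tested.

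**Figure D4:**
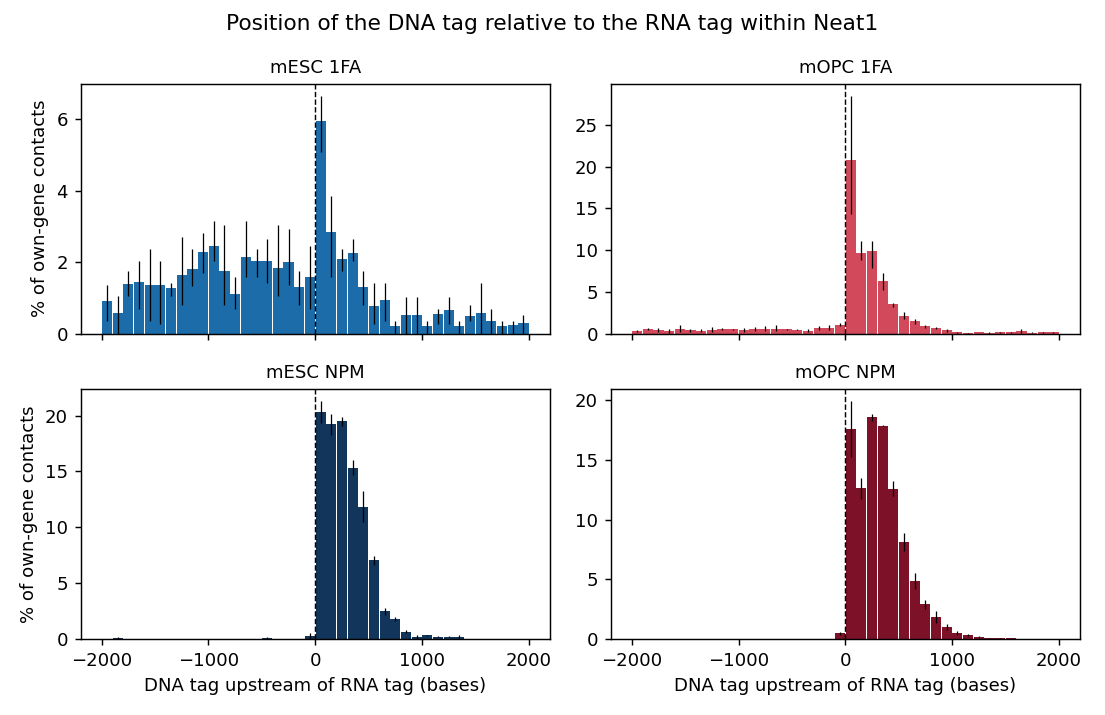
Position of the DNA tag relative to the RNA tag for contacts of Neat1 RNA with the Neat1 gene, in windows of 100 bases, as the percentage of own-gene contacts. Positive values lie towards the 5′ end of the gene, bars are means over libraries, and lines run from the lowest to the highest library. In mESC NPM and mOPC NPM nearly all contacts are on the positive side, and in mESC 1FA they lie on both sides.

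The DNA positions of these contacts recurred across groups. The position of the second DNA tag printed above, 1630 bases from the 5′ end, was seen 102 and 188 times in mOPC NPM, 14 and 17 times in mESC NPM, 18, 11 and 6 times in mOPC 1FA, and 3, 2 and 1 times in mESC 1FA. The position 2021 bases from the 5′ end was seen 8 and 25 times in mESC NPM and 31, 12 and 11 times in mOPC 1FA. The first DNA tag printed above, at 9181 bases, led mOPC NPM with 165 and 159 contacts. Each position held at most 3.84% of the own-gene contacts of its group.

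Neat1 was the main RNA on its own DNA. Of all RNAs listed with DNA of the Neat1 gene, Neat1 made up 64.8%, 56.2% and 62.2% in mESC 1FA, 84.2%, 78.6% and 81.8% in mOPC 1FA, 91.0% and 94.5% in mESC NPM and 95.5% in both mOPC NPM libraries. Contacts with the adjacent Malat1 gene were 33, 17 and 23 in mESC 1FA (1.85% to 2.63% of Neat1 interactions) and 83, 99 and 43 in mOPC 1FA (0.381% to 0.752%), and the reverse contacts, Malat1 RNA with Neat1 DNA, were 64, 62 and 50 and 111, 93 and 73.

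Besides Neat1 itself, the first cis targets of the 1FA groups were close neighbours, and later ones lay farther along chromosome 19. Frmd8, which codes for a FERM domain protein, had 57, 36 and 41 Neat1 contacts in mESC 1FA and 123, 121 and 74 in mOPC 1FA. Per 1000 Neat1 interactions these were 39.2 to 46.8 in mESC 1FA and 6.56 to 9.65 in mOPC 1FA, so that the larger counts of mOPC 1FA were a smaller part of the Neat1 interactions. The antisense neighbour Frmd8os, just upstream of Neat1, had 43, 28 and 30 contacts and 103, 82 and 63, or 30.5 to 34.2 and 5.58 to 8.08 per 1000. In mOPC 1FA the list went on with Macrod1, which codes for an ADP-ribosylhydrolase (47, 60 and 47 contacts), the presynaptic receptor gene Nrxn2 (56, 51 and 33), Gm21992 (52, 58 and 23) and Pacs1, a sorting protein gene (44, 59 and 29). Macrod1 was listed at 0 in mESC 1FA, whereas Nrxn2 had 24, 11 and 4 contacts there, Gm21992 11, 1 and 5, and Pacs1 22, 8 and 16. Per 1000 Neat1 interactions Pacs1 had 8.71 to 18.3 in mESC 1FA and 2.57 to 4.48 in mOPC 1FA. In mESC NPM, after Neat1, the named targets were Gm27505, Gm28006 and Gm27533, short annotated genes that lie inside Neat1.

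In mOPC 1FA the trans contacts were spread over 1466 bins of 25 kb, 1439 of them with a contact in every library, out of 102904 bins off chromosome 19 (1.42%). Malat1 had 13251 trans bins there (12.9%). In mOPC NPM Neat1 had 569 trans bins (0.553%) and Malat1 1546 (1.502%), whereas mESC 1FA listed 4 trans bins for Neat1, mESC 2FA and mESC NPM 2 each and mESC ActD4 none. The 1466 and 569 bins of the mOPC groups shared 265, or 18.1% of the first and 46.6% of the second. Of the 1466 Neat1 bins, 1421 were also bins of Malat1 (96.9%, and 10.7% of the Malat1 bins), and of the 569 in NPM 521 were (91.6%, and 33.7%). A single deep list of Malat1 bins thus held most Neat1 bins.

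The trans contacts were concentrated on a few chromosomes. In mOPC 1FA chromosome 5 held 26.5 ± 1.15% of them (SD, n = 3), chromosome 11 17.8 ± 0.820%, chromosome 15 13.7 ± 0.169%, chromosome 10 10.9 ± 0.782% and chromosome 2 9.29 ± 0.225%. The X chromosome was listed at 0 for Neat1 and for all other RNAs, and held 0.163% of Malat1 trans contacts. For Neat1, only 6 chromosomes held more than their share of the genome's length. In mOPC NPM chromosome 5 held 72.4 ± 1.23% (n = 2) and chromosome 15 17.4 ± 0.385%, and these were the 2 above their length share. Malat1 trans contacts were on chromosome 5 in 12.9% (1FA) and 51.1% (NPM) of cases, and those of all other RNAs in 33.5 ± 3.11% and 50.0 ± 3.90%. In mOPC 1FA the mean share of all other RNAs was higher on chromosome 17, at 38.4 ± 4.01%. Over 19 chromosomes, Pearson's r between the shares of Neat1 and Malat1 was 0.859 in 1FA and 0.959 in NPM. Between Neat1 and all other RNAs it was 0.571 and 0.908. Between Neat1 and chromosome length it was 0.0445 and 0.0735. The points share libraries and depth, so r is a description.

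On chromosome 5 most of the contacts lay in the first 45 Mb, which make up 1.75% of the length considered. This stretch held 22.7%, 21.96% and 24.4% of Neat1 trans contacts in the mOPC 1FA libraries and 73.0% and 71.3% in mOPC NPM, against 8.33% to 8.59% and 49.9% to 50.1% of those of Malat1. In mESC 1FA it held no Neat1 contact and 0.821% to 0.957% of Malat1 trans contacts, less than its share of the length. Whether the Oli-neu line has more copies of this stretch was not tested. Without it, the mOPC 1FA and mESC 1FA trans shares differed by 57.6 points.

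**Figure D5:**
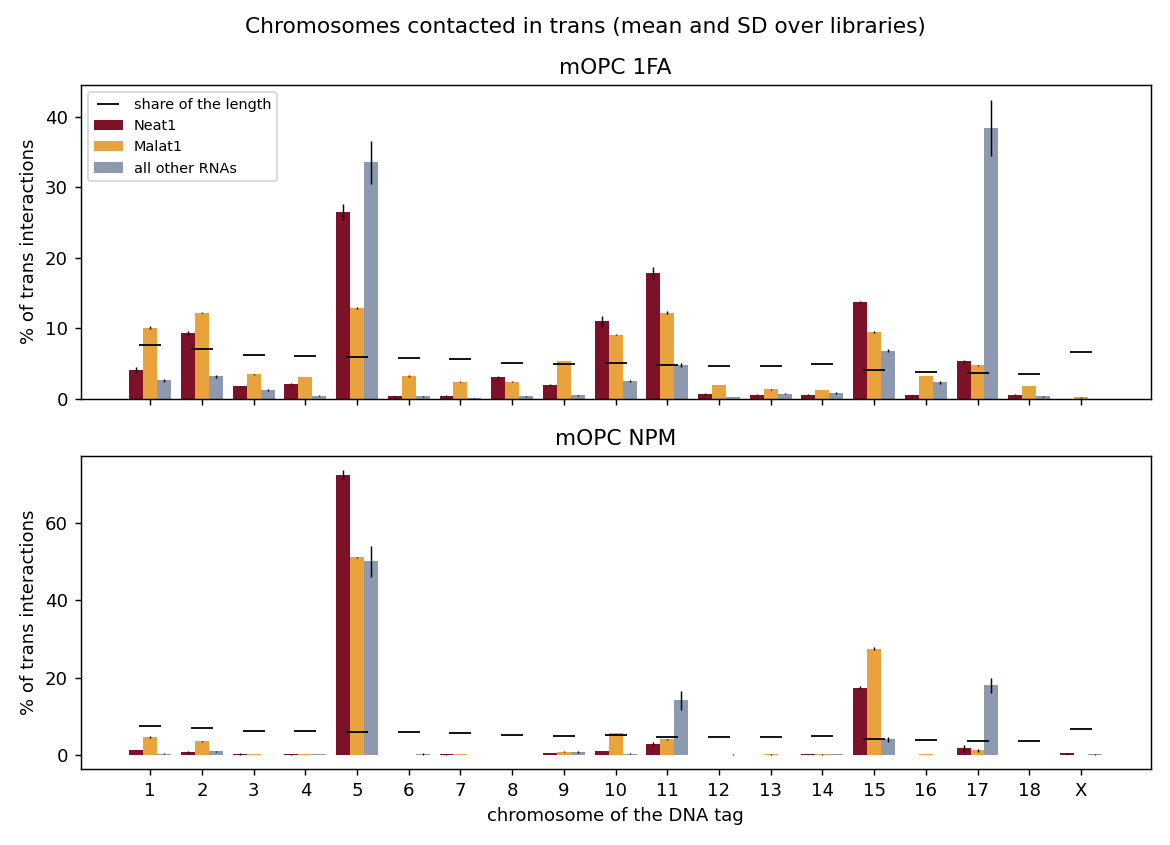
Share of trans interactions by chromosome of the DNA tag in mOPC 1FA (n = 3) and mOPC NPM (n = 2) for Neat1, Malat1 and all other RNAs, with bars for the mean, error bars for the SD over libraries and black dashes for the share of the genome's length. Chromosome 5 is the tallest for Neat1 in both groups (26.5% and 72.4%).

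The 10 trans targets with the most contacts in mOPC 1FA spanned 51962 to 4434882 bases. Lhfpl3, a transmembrane protein gene and one of the mOPC markers used above, spans 529539 bases of chromosome 5 and had 225, 211 and 236 Neat1 contacts in mOPC 1FA, with 223 and 213 in mOPC NPM. Babam2, which codes for a subunit of a BRCA1-associated deubiquitinating complex, had 85, 90 and 101 contacts in mOPC 1FA, with 210 and 174 in mOPC NPM. Srpk2, the gene of a kinase of splicing factors, had 55, 56 and 62, and 80 and 82. Both are in the first 45 Mb of chromosome 5, as are 5031425E22Rik (51, 44 and 41 in 1FA), Gm43809 (42, 45 and 34) and the DNA polymerase gene Poln (40, 39 and 24).

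Off chromosome 5, the leading targets of mOPC 1FA were Gm20388 on chromosome 8, which spans 4434882 bases and so covers other genes (99, 105 and 88 contacts), and 3 genes of chromosome 11. These were Rptor, which codes for the Raptor subunit of mTOR complex 1 (39, 49 and 30), the septin gene Sept9 (33, 46 and 30) and 2610035D17Rik, a noncoding RNA gene (38, 42 and 20). All 4 were listed at 0 in mOPC NPM, and all 10 trans targets were listed at 0 in every mESC library. Plb1, Sfi1 and 9330182L06Rik joined Lhfpl3 and Babam2 among the first 5 trans targets of mOPC NPM, with 136 and 103, 125 and 112, and 103 and 67 contacts.

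The RNA of the trans targets on chromosome 5 was itself captured more in mOPCs. Between mOPC 1FA and mESC 1FA, 7 of the 10 were called higher, 2 lower and 1 not called by limma, against 33% of all transcripts called higher and 78% called at all. Of the 7, 6 lie in the first 45 Mb of chromosome 5, and of the 4 targets elsewhere only 2610035D17Rik was higher. Lhfpl3 RNA was listed at 0 in the 3 mESC 1FA libraries and at 12916, 13200 and 12965 in mOPC 1FA. The log2 difference was 3.86 for Babam2 (SE 0.13), 2.96 for Srpk2 (SE 0.12), −0.65 for Gm20388 (SE 0.16) and −1.66 for Sept9 (SE 0.14), and for Rptor it was 0.19 (SE 0.13, limma adjusted p = 0.225). Of the 8 leading cis targets, Neat1 included, 3 were called higher, 3 lower and 2 not called. The targets were chosen for their Neat1 contacts in these libraries, so the counts are a description.

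Among the trans DNA tags, 73.4%, 73.9% and 74.0% in mOPC 1FA, with 62.1% and 62.7% in mOPC NPM lay in an annotated gene. Within the target genes, 25.3 ± 1.52% of the tags in mOPC 1FA (SD, n = 3) fell in the first 20% of the gene and 19.97 ± 0.727% in the last 20%. The same shares were 25.5 ± 0.902% and 19.9 ± 0.3001% for Malat1 and 24.3 ± 0.325% and 20.04 ± 0.980% for all other RNAs in trans. In genes of at least 20 kb, the first 20% held 25.2 ± 1.86% for Neat1, 25.4 ± 0.838% for Malat1 and 27.7 ± 0.423% for all other RNAs, so that the order of Neat1 and all other RNAs turned. In mOPC NPM the first 20% held 20.6 ± 0.338% of Neat1 tags. In mOPC 1FA the shares of Neat1 and Malat1 over all genes in both windows differed by less than the SD over libraries.

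The trans bin with the most Neat1 contacts in mOPC 1FA, and in every other group with trans contacts, was chr17:39825001-39850000, which holds Gm26917, CT010467.1, Gm42418 and AY036118 and in which the assembly carries ribosomal RNA gene sequence. It had 12, 8 and 6 Neat1 contacts in mESC 1FA, 5, 9 and 6 in mESC 2FA, 13 and 34 in mESC NPM, 13, 27 and 48 in mOPC 1FA, with 72 and 130 in mOPC NPM. It made up 37.5% to 61.5% of the trans contacts of mESC 1FA, and 0.164% to 0.620% of those of mOPC 1FA. After it, the mESC 1FA trans list held Sfi1 (16, 1 and 4 contacts, most of them in replicate 1), the same gene that was among the first in mOPC NPM. The other trans bin of mESC NPM held n-R5-8s1, a ribosomal RNA gene copy, with 7 and 3 contacts. Of the 4 mESC 1FA bins, 3 were also listed in mOPC 1FA.

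Genes of paraspeckle proteins and of factors that choose the Neat1 isoform were examined through their own captured RNA. Of 29 such genes tested between mOPC 1FA and mESC 1FA, 6 were called higher and 11 lower in mOPCs (17 in all, beside 78% of all transcripts). Of all 10256 transcripts tested, 3380 were called higher and 4622 lower. The median of all transcripts was −0.30 on the log2 scale with TMM. Among 8 core paraspeckle proteins, 2 were higher, 2 lower and 4 not called. Rbm14, a protein needed for paraspeckles, had 234, 165 and 180 interactions in mESC 1FA and 30, 15 and 23 in mOPC 1FA (log2 difference −2.35, SE 0.24, limma adjusted p = 4.27e-05), and Pspc1 had 593, 518 and 731 against 211, 168 and 153 (−1.03, SE 0.13). Nono was higher by 0.49 (SE 0.16) and Smarca4, a chromatin remodeller, by 0.81 (SE 0.11). Sfpq, with 426, 346 and 503 against 286, 197 and 190, was not called (−0.17, SE 0.16).

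Of 5 genes for the choice between the isoforms, Nudt21, a subunit of the cleavage factor that promotes the short isoform, had 77, 81 and 103 interactions in mESC 1FA and 13, 10 and 19 in mOPC 1FA (log2 difference −1.88, SE 0.26, limma adjusted p = 0.000242). Its partner Cpsf6 was higher by 1.16 (SE 0.13), the related Cpsf7 differed by −0.31 (SE 0.11, called lower) and Tardbp, an RNA-binding protein that promotes the short form, by −0.88 (SE 0.11). Hnrnpk, which favours the long form, was not called (0.27, SE 0.14). Among 16 other paraspeckle proteins, 6 were lower, 3 higher and 7 not called. Hnrnpf (−1.51), Hnrnpul1 (−1.26), Hnrnpa1 (−1.24), Matr3 (−1.15), Rbm3 (−1.14) and Srsf10 (−0.61) were lower. Ss18l1 (1.43), Ewsr1 (0.68) and Hnrnpm (0.48) were higher, the last 2 not with total scaling (0.25, limma adjusted p = 0.131, and 0.05, adjusted p = 0.752). With total scaling, under which the median of all transcripts was −0.73, 3 genes were higher and 15 lower. Of all 10256 transcripts tested, 2604 were then called higher and 5621 lower. Under that scaling Nono (0.06, limma adjusted p = 0.752) was no longer called, while Sfpq was lower (−0.60, limma adjusted p = 0.00647). Captured RNA on chromatin is not protein, and fewer transcripts cannot be told apart from less contact with chromatin.

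The transcripts with a pattern most like that of Neat1 over the 15 libraries were found by Pearson's r of log2 levels among 10831 transcripts. Slc5a6, a vitamin transporter gene that lies in one of the 10 leading Neat1 bins of chromosome 5, had an r of 0.989, with 1.51 CPM in mESC 1FA, 8.62 in mESC NPM, 640 in mOPC 1FA and 1225 in mOPC NPM over the pooled libraries of each group. Nin (0.982), Col16a1 (0.981), Mtss1l (0.979) and 3110039I08Rik (0.978) followed, and Malat1 was at 0.822. The ratio of Malat1 to Neat1 interactions was 43.4 to 48.0 in mESC 1FA, 19.2 to 22.9 in mOPC 1FA, 15.3 and 18.4 in mESC NPM, and 2.39 and 4.38 in mOPC NPM. In mESC ActD4 it was 106 and 166, and in mESC 2FA 24.3 to 30.5.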

How the data were processed

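RADICL-seq RNA and DNA tags were processed by the authors, with base calling by CASAVA 1.8 and alignment by BWA 0.7.15-r1140 to mm10 according to the submitters' processing notes. Each line of the deposited files is an interaction and carries its 25 kb bin together with the p-value and the adjusted p-value of the pair (a one-sided binomial test), and only pairs with an adjusted p under 0.05 are listed. No deposited column was a count. Interactions were counted here from the lines, each distinct interaction once. No column of per-sample values was left unused. Significance was called on pooled libraries, so file totals are not sequencing depth. Intervals are exact binomial (Clopper-Pearson, 95%) and cover counting error only.

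Capture was tested on log2 CPM (TMM scaling, prior count 0.5, at least 10 interactions in as many libraries as the smaller group) with limma 3.58.1 in R 4.3.3, with a trend and Benjamini-Hochberg adjustment over all transcripts, using only the groups compared. Shares per library were compared by exact two-sided permutation tests, adjusted over 16 tests. Scripts used Python 3.11.15. The fit was tested on simulated data before use. Gene positions are from GENCODE M21 and isoforms from RefSeq, both on GRCm38. A promoter sequence of Neat1 was not used here.

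Members and gene lists were chosen with earlier results of these data known. Named targets were the genes with the most Neat1 interactions in a group and at least 1 in every library (10 trans and 8 cis in mOPC 1FA, 5 and 5 elsewhere), named bins the first 10 in mOPC 1FA and the first 3 elsewhere, and like transcripts the 5 with the highest r. Same-numbered mESC 1FA and mESC 2FA libraries deviated together from their group means (correlations over transcripts of 0.279, 0.156 and 0.235), so that these numbers were taken as pairs from the data. Alternatives covered scaling, filters, pair thresholds, own-gene contacts, repeated positions, the isoform boundary and each library left out.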

Additional observations from a re-analysis of the deposited data

Results flagged for a closer look

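The effect of the NPM procedure on the trans share of Neat1 had opposite directions in the 2 cell types. Every mOPC NPM library lay below every mOPC 1FA library, and every mESC NPM library above every mESC 1FA library, so that the effect in mOPCs minus that in mESCs was −39.7 percentage points. The difference between the effects was not tested. These shares are of Neat1 interactions, of which own-gene contacts were a larger part in NPM. Over all listed interactions, Neat1 trans contacts were a larger part in NPM in both cell types. They were 20 of 434610 and 37 of 608994 in mESC NPM, against 32 of 2667971, 13 of 2441619 and 12 of 2832717 in mESC 1FA. The mOPC direction of the trans share turned with own-gene contacts left out (25.5 points) and with each pair counted once (16.1 points). The mESC effect was then 97.6 and 61.7 points, so that both cell types went the same way. Without own-gene contacts only trans contacts were left in mESC NPM, so that its share was fixed at its maximum. With each pair counted once it rested on 3 pairs. The mESC part rests on 20 and 37 trans interactions, of which 13 and 34 lay in the bin of the ribosomal RNA genes. For Malat1 the trans share was lower in NPM than in 1FA in both cell types, so the mOPC direction was not particular to Neat1.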

How the results depend on the processing

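Capture of Neat1 kept its sign under every alternative but one. With each pair of transcript and bin counted once, which shared pair lists make nearly equal in all libraries of a group (so that its test is void), the log2 difference was −2.26 in mESC NPM and −0.15 in mOPC NPM against 1FA, 7.35 in mOPC NPM against mESC NPM, and 5.07 in mOPC 1FA against mESC 1FA. With total scaling it was 1.16 in mESC NPM, 1.54 in mOPC NPM and 3.90 in mOPC 1FA against mESC 1FA. Outside the own gene it was 0.88 (limma adjusted p = 0.0498), 4.10 (adjusted p = 2.83e-05) and 4.92, and 8.93 in mOPC NPM against mESC NPM (adjusted p = 0.000284, 412 transcripts tested). The median over all transcripts was −4.59 and −4.88 in the first 2. Each of these differences outside the own gene is relative to the transcripts left in its fit. In mOPC NPM against 1FA it also passed with no low-count filter (0.71, adjusted p = 0.00954), with all 6 groups in 1 fit (0.58, adjusted p = 0.0254) and with the replicate block (0.61, adjusted p = 0.0107). Those numbers are shared by 2 libraries only and do not pair. With the block the mESC 2FA difference of −0.54 passed as well (adjusted p = 0.00352), and the block changed no call other than these. Leaving out each library gave −0.71 to −0.31 for mESC 2FA, −2.21 to −1.68 for mESC ActD4, 0.33 to 0.72 for mESC NPM, 0.61 to 0.79 for mOPC NPM, 4.67 to 4.77 for mOPC NPM against mESC NPM, and 4.16 to 4.55 for mOPC 1FA against mESC 1FA.

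The trans share difference of mESC 2FA was 0.00534 points at pairs with adjusted p under 0.01 and 0.245 without own-gene contacts. Without own-gene contacts it was 25.5 in mOPC NPM, 61.6 for NPM within both cell types and 70.8 for mOPC 1FA against mESC 1FA, and with each pair once 16.1, 38.9 and 78.4. The last was 57.6 without the first 45 Mb of chromosome 5. It was −1.69 with the pair minimum scaled to all Neat1 interactions, which no trans pair of mOPC 1FA reached, and 17.9 with that scaled to cis interactions. The difference within 1 kb was −0.522 in mESC NPM and −0.239 within both cell types without own-gene contacts, which contain nearly all near contacts. The long-only share difference was −2.98 in mESC 2FA and −4.90 for NPM within both cell types with each tag position counted once. It was 1.12 in mESC ActD4 with the boundary 500 bases further. In trans contacts only, it was 7.34 in mESC NPM and 11.8 for NPM within both cell types (exact permutation p = 0.02, the smallest possible, not adjusted). The mESC part of this rests on 32, 13 and 12 trans contacts in mESC 1FA and 20 and 37 in mESC NPM. Over all interactions the mESC NPM difference was −9.16. In the first 10% of target genes lay 14.2% of trans tags. Causes were not tested where none is given.

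Leaving out each library gave trans differences of −0.365 to 0.0895 in mESC 2FA (higher without mESC 1FA replicate 1), −1.85 to −1.39 in mESC ActD4, 3.55 to 5.23 in mESC NPM, −36.9 to −33.7 in mOPC NPM, −16.2 to −14.6 within both cell types and 62.1 to 65.3 between cell types. Within 1 kb they were 80.5 to 82.7, 60.3 to 63.0 and 71.0 to 72.3. Long-only differences were −3.12 to 3.57 in mESC 2FA, −5.62 to 0.771 in mESC ActD4, −15.8 to −2.47 in mESC NPM, 10.4 to 24.9 in mOPC NPM, 0.628 to 7.89 within both cell types, 19.5 to 25.6 for mOPC 1FA, 43.1 to 57.6 for mOPC NPM and 33.3 to 40.5 for both against mESC. The paraspeckle list gave 14 to 17 called genes, and the first 20% of target genes 24.5% to 25.98% of trans tags. Over all results and alternatives, 239 values kept their direction and side of the threshold or moved by less than the spread, 21 reversed, 11 newly passed the threshold, 7 no longer did, and 9 moved by more than the spread. Share tests of a single pair of groups have a smallest possible p of 0.1 or more. Their side of the threshold was thus fixed by the design, and the count of kept values does not measure robustness for them.

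The small number of Neat1 interactions limits the mESC groups most. Trans contacts there were 37 or fewer in a library, and mESC ActD4 had 83 Neat1 interactions in all. In mESC ActD4 the long-only share in trans gave no value.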
